A study of Mus musculus with 4 samples.

Results

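The peaks described here are the MOV10 binding sites that lie in the last 500 nt of a gene. They were chosen by position alone. A peak was a member if its midpoint lay in exactly 1 RefSeq gene span of at least 15000 nt and at most 500 nt from the gene's 3′ end, with the direction of the gene taken from the strand of the peak. Of 12236 listed peaks, 1418 were members (11.6%), and they lay in 666 genes, all of them protein-coding. Genes of at least 15000 nt held 9978 peaks in exactly 1 gene, so members made up 14.2% of these. The direction of 539 of the 666 genes could be looked up in a RefSeq table of gene starts, and it was the same as that of the peaks in all 539.

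The cells were N2A, an established line from a mouse neuroblastoma, kept in DMEM with serum, with no genetic change or drug treatment named in the labels. The assay was eCLIP, in which ultraviolet light fixes proteins to the RNA they touch, the chosen protein is pulled down with an antibody, and the RNA fragments bound to it are sequenced beside those of an input that was not pulled down. The series holds 4 libraries, 2 anti-MOV10 immunoprecipitates and 2 inputs, and the values used came from 1 list of peaks for all libraries together, giving each peak a −log10 p and its enrichment in immunoprecipitates over inputs on a log2 scale, both computed by the authors. The file has no header, and these meanings were read from the ranges of its columns. With 1 value per peak there is no spread between replicates, no depth and no test between samples, and the counts and medians given here are descriptions. Only peaks above a minimum of both values are listed (lowest −log10 p 3.01), so a gene end without a peak is not shown to be unbound.

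MOV10 is an RNA helicase that binds the 3′ untranslated regions of messenger RNAs and associates with Argonaute proteins in microRNA-guided silencing. The end of a messenger RNA is made by cleavage downstream of a polyadenylation signal, most often AATAAA in the DNA, after which a poly(A) tail is added and coated by poly(A)-binding proteins. The last stretch of the transcript thus lies between the body of the untranslated region, where microRNAs, Pumilio and AU-rich-element-binding proteins act, and the tail, where deadenylation starts.

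The sequence of a gene end could be read only where the RefSeq table of gene starts (GRCm38.p6) reaches it, because another gene starts just downstream. This held for few of the 666 genes. The last 30 bases of 4 of them are shown because they are the point from which all distances here are counted, 5′ to 3′ in the direction of the gene, with AATAAA in capitals. Genome positions are chr15:98831669-98831698 (minus strand) for Kmt2d, chr17:24073680-24073709 (minus) for Pdpk1, chr11:97685432-97685461 (plus) for Mllt6 and chr11:78290596-78290625 (plus) for 2610507B11Rik.
Kmt2d: ataAATAAAaaaagaacattttaaatacaa
Pdpk1: gtcttgtAATAAAagcatgtagagtgtaca
Mllt6: gaatgttttactaaaaaaagaaaatccaaa
2610507B11Rik: attgtattgagtaaaagcgttcaagttgtc
AATAAA stood in 2 of these 4 ends, 21 nt before the end in Kmt2d and 17 nt before it in Pdpk1. On the same strand it was found in 1.09% of the 328510 windows of 30 bases cut from all RefSeq promoter sequences, and on either strand in 2.09%. These windows come from gene starts, with base composition not matched, so they are no background for gene ends. The other 2 ends did not hold these letters within 30 bases.

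A member peak could also be read in full in 1 case. It lies in Mllt6, which encodes a chromatin protein first known from leukaemia fusions, at chr11:97685377-97685399 (plus strand), and is shown as an example of a strong and short peak close to the end. Its log2 fold enrichment was 5.38, its −log10 p was 15.7, its midpoint lay 73 nt from the end, and 43.5% of its 23 bases were G or C.
Mllt6 peak: ggatgttatttgtacgaagggca
The other 2 members of Mllt6, at 128.5 and 449.5 nt, had log2 fold enrichments of 4.27 and 3.22. Kmt2d, a histone methyltransferase gene, had 1 member at 3.29, the kinase gene Pdpk1 1 at 3.34 and 2610507B11Rik 1 at 4.34.

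MOV10 peaks ran up to the annotated end of genes and stopped just before it. Among the 1421 genes of at least 15000 nt with a peak, the share covered by a peak was highest, 24.3% (346 genes), at 781 nt before the end. It was 21.7% at 500 nt, 20.3% at 300 nt, 18.9% at 200 nt and 16.0% at 100 nt. It then dropped to 8.16% at 50 nt, 0.915% (13 genes) at 20 nt and 0.281% (4 genes) at the end itself. At 50 nt past the end 5 genes were covered (0.352%), and at 100 nt past it 2 (0.141%).

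**Figure D1:**
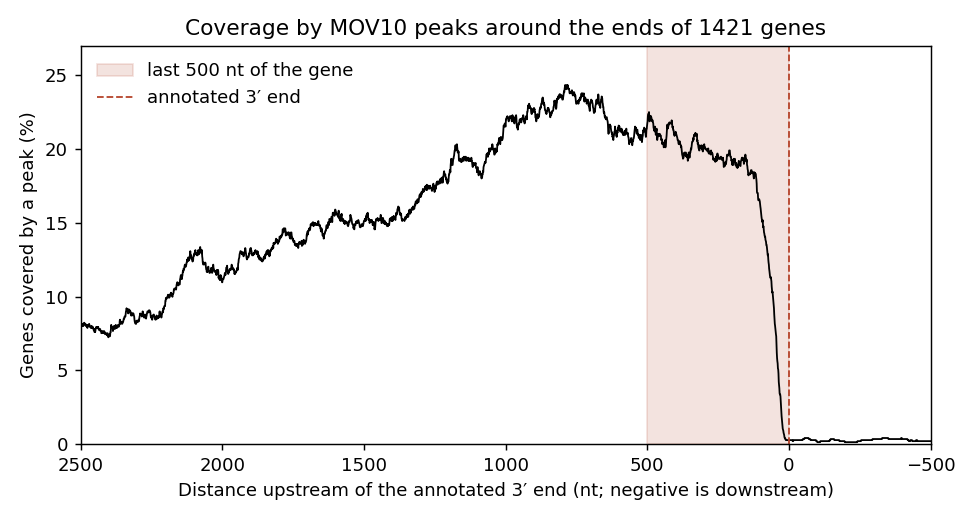
The share of the 1421 genes covered by a MOV10 peak (vertical axis, percent) is drawn against the distance upstream of the annotated 3′ end in nt (horizontal axis, negative values downstream), with the last 500 nt shaded. The share lies near 20% through most of the shaded window and drops from 16.0% at 100 nt to 0.281% at the end.

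Within the window, members were spread evenly except for the last 100 nt. Bins of 50 nt held 173 midpoints at 450 to 500 nt, between 152 and 179 in each of the 7 bins from 100 to 450 nt, 113 at 50 to 100 nt and 9 in the last 50 nt. The midpoint of a peak that stops at the end lies some way before it, and the median member was 77 nt wide (interquartile range 47 to 112), so low counts in the last bins are partly built into a measure by midpoints. The edges of the members show how near to the end they reach. A peak that crossed the end with its midpoint past it is not a member, as in Gna12, with a midpoint 6 nt past the end. The number of crossing members is thus limited by the rule. Of the 1418 members, 2 crossed the annotated end, 9 had their edge within 20 nt of it, and 110 within 50 nt. The 2 members that crossed were in Rnf11, which encodes a RING-type ubiquitin ligase adaptor, by 38 nt, and in Gltp, the glycolipid transfer protein gene, by 12 nt. The members with the nearest midpoints were in Ankrd52, an ankyrin-repeat subunit gene of a protein phosphatase (36 nt, log2 fold enrichment 4.09), the syndecan gene Sdc3 (38.5 nt, 3.96) and Rnf11 (40.5 nt, 3.14).

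Past the annotated end, few peaks were listed. Within 500 nt downstream of a gene of at least 15000 nt on the same strand, and in no other gene, there were 36 peaks next to 15 genes, against the 1418 in the 500 nt before the end. Downstream positions that another gene occupies are not in this count. Of the 36, 26 followed genes that also had members. Ago2, which encodes the Argonaute protein of RNA silencing, accounted for 7 (up to a log2 fold enrichment of 5.82), Ankrd52 for 6 (up to 4.51), Abhd2, a serine hydrolase gene, for 5 (up to 4.81) and Gna12, a G protein α subunit gene, for 5 (up to 3.97). Whether the transcripts of these genes run past the annotated end in N2A cells was not tested.

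The strength of the members was close to that of the other peaks at its centre and lower at its top. Members had a median of 3.71 on the log2 scale (quartiles 3.34 and 4.17), or 13.1-fold, against 3.73 (3.35 and 4.23) for the 8560 peaks elsewhere in genes of the same span. At or above 4 were 480 members (33.9%), beside 33.7% of all 12236 peaks. At or above 5 were 49 members (3.46%), beside 5.93% of all peaks. The strongest member reached 6.09 (68.0-fold), against 6.93 elsewhere. The median −log10 p was 9.34 for members and 10.3 for the other peaks of these genes. At the highest listed value of 400 were 12 members (0.846%), beside 0.686% of all peaks. They lay in 4 genes, 6 in Ttyh3, a tweety-family membrane protein gene, and 2 each in the heterochromatin protein gene Cbx5, the collapsin response mediator gene Dpysl3 and the thioredoxin reductase gene Txnrd1.

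Over all peaks in genes of at least 15000 nt, the share at or above 5 was higher in each window farther from the end, up to 3000 nt. It was 3.46% in the last 500 nt, 4.71% at 500 to 1000 nt, 5.44% at 1000 to 1500 nt, 6.60% at 1500 to 2000 nt and 7.89% at 2000 to 3000 nt. Counted by gene, the same shares were 5.41% (36 of 666 genes), 5.65%, 6.08%, 6.53% and 8.55% (39 of 456). The share of genes at or above 4 did not follow this order. It was 39.5% in the last 500 nt, 36.7% at 500 to 1000 nt and 39.9% at 2000 to 3000 nt. The window from 2000 to 3000 nt is 1000 nt wide, against 500 nt for the others. Its shares by gene can thus be higher by width alone. In genes with up to 3 peaks, the share of peaks did not rise with distance up to 3000 nt. At or above 5 it was 0.336% in the last 500 nt (1 of 298 peaks) and 0% in each later window up to 3000 nt. From 3000 to 5000 nt it was 3.03% (2 of 66 peaks), and farther out 0%. At or above 4 it ran 12.1%, 10.2%, 7.69%, 7.63% and 6.86% over the windows up to 3000 nt. Farther out it was 10.6% at 3000 to 5000 nt, 10.7% at 5000 to 10000 nt and 12.2% beyond 10000 nt. All these windows share genes, and no test of the order was made.

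Among members themselves, strength showed no trend with position. Over the 1418 members Spearman's rho between distance and log2 fold enrichment was −0.0057, and the medians of the 50 nt bins lay between 3.61 (9 peaks in the last 50 nt) and 3.79. Wider peaks were slightly weaker (rho = −0.13), and −log10 p and log2 fold enrichment went together (rho = 0.44). Members of 1 gene share its transcript, so these values are not independent. Members touched another peak in 727 cases (51.3%), against 54.1% of all peaks. Those that touched had a median log2 fold enrichment of 3.85 and a median width of 64 nt, against 3.59 and 90 nt for those that stood alone. With touching peaks merged, the window held 972 intervals with a median width of 109 nt.

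**Figure D2:**
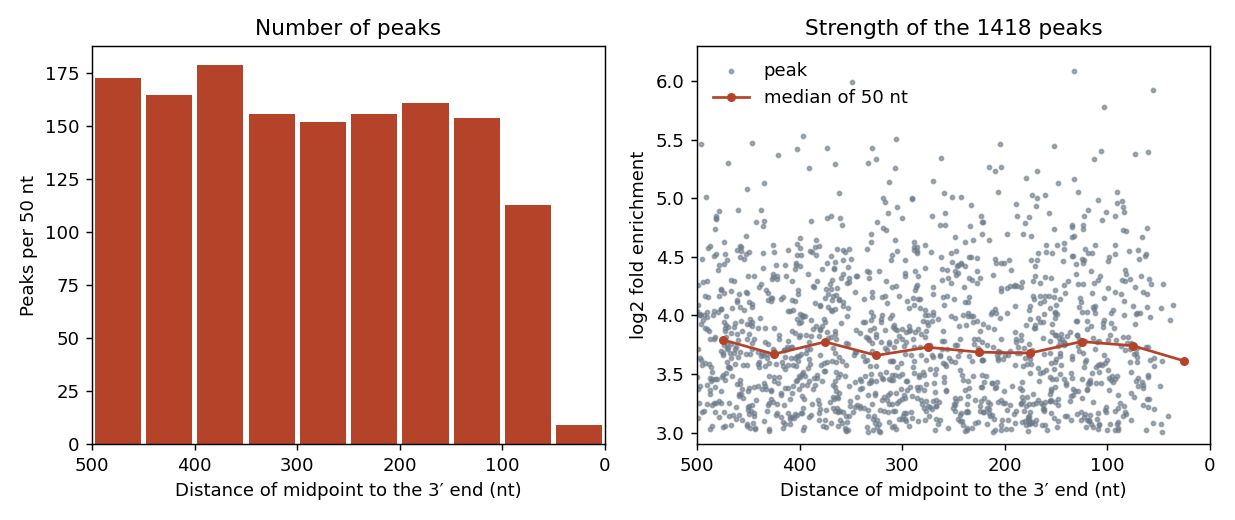
On the left, bars give the number of peak midpoints in each 50 nt (vertical axis) by distance to the 3′ end in nt (horizontal axis). On the right, each grey point is 1 of the 1418 peaks by distance and log2 fold enrichment, with the median of each 50 nt in red. Counts lie between 152 and 179 from 100 to 500 nt and drop to 9 in the last 50 nt, while the medians stay between 3.61 and 3.79.

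Of the 1421 genes of at least 15000 nt with a peak, 666 had a member (46.9%), and 531 of these 666 genes also had peaks elsewhere. In 53 of the other 755 genes the whole window is shared with another gene, so that no peak there could count. Among the 1318 genes with a window free of other genes the share was 49.1%. The 666 genes had a median of 6 peaks in all, against 2 in the 755 genes with peaks elsewhere only, and their strongest peak anywhere had a median of 4.20, against 3.66. A gene with more peaks has more chances to hold a member, so the 2 sets differ in number of peaks through the way they were formed. Their median span was 49934.5 nt, against 58843 nt, and the median gap to the next gene past the end was 6774 nt, against 6773 nt.

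Most genes with members had few of them. A single member was found in 306 genes (45.9%), 2 in 171 and 3 in 103, while 48 genes (7.21%) had 5 or more. The 10 genes with the most held 92 members (6.49%). Members came from 20 chromosomes, and their share of the peaks in genes of at least 15000 nt ran between 8.39% on chromosome 16 (24 members) and 20.2% on chromosome 4 (152 members).

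The strongest gene ends belonged to genes of varied function. Tmcc2, which encodes a coiled-coil membrane protein, led with a peak of 6.09 (chr1:132356367-132356527, minus strand), 132 nt from the end. Its 2 other members, at 357.5 and 449 nt, had 4.11 and 3.84. Lsm12, of the LSm family of RNA-associated proteins, had 9 members. Those at 96.5, 133 and 151 nt had 3.45, 3.32 and 3.39, and the 6 between 263.5 and 473.5 nt ranged over 4.62 to 5.99, the highest at chr11:102162815-102162877. The Lsm12 members thus formed a weak block next to the end and a strong block farther in.

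Wdtc1, a WD-repeat gene linked to fat storage, had 6 members spread over the window. The one closest to the end, at 55 nt (chr4:133292494-133292548), had 5.92, and the other 5 ranged over 4.16 to 4.55. Agap1, a GTPase-activating protein gene of membrane traffic, had 5.78 and 4.69 at 103.5 and 198 nt and 3.78 and 3.86 at 261.5 and 365.5 nt. In both genes the peak nearest to the end was the strongest of the window.

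Smad5, a transducer of bone morphogenetic protein signals, had members of 4.30, 5.53 and 4.29. The 7 members of the histone methyltransferase gene Kmt5a ranged over 4.33 to 5.47, and its 2 strongest were at 204.5 and 446 nt. Larp1, which binds messenger RNAs of the translation apparatus, had 6 members of 3.81 to 5.46, the strongest at 496 nt. Wasf2, of the actin-regulating WAVE complex, had 8 of 3.71 to 5.45, and the Golgi GTPase gene Arf3 6 of 4.05 to 5.43. The strongest members of Wasf2 and Arf3 were narrow, 14 and 10 nt wide.

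The largest numbers of members were in Dpysl3 and Ttyh3, with 12 each. The 12 members of Ttyh3 lay between 61 and 403 nt and were of even strength, 4.32 to 4.75. Those of Dpysl3 lay between 123 and 483 nt, at 3.80 to 4.47. Srebf2, the transcription factor of sterol synthesis, had 11. They reached 4.02 at 96 nt, 3.04 at 255.5 nt and 5.43 at 373.5 nt (chr15:82205000-82205011, plus strand), so that a strong block stood inside the window with weaker peaks towards the end. Cdc42, a GTPase of cell polarity, had 10 members of 3.02 to 4.13.

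**Figure D3:**
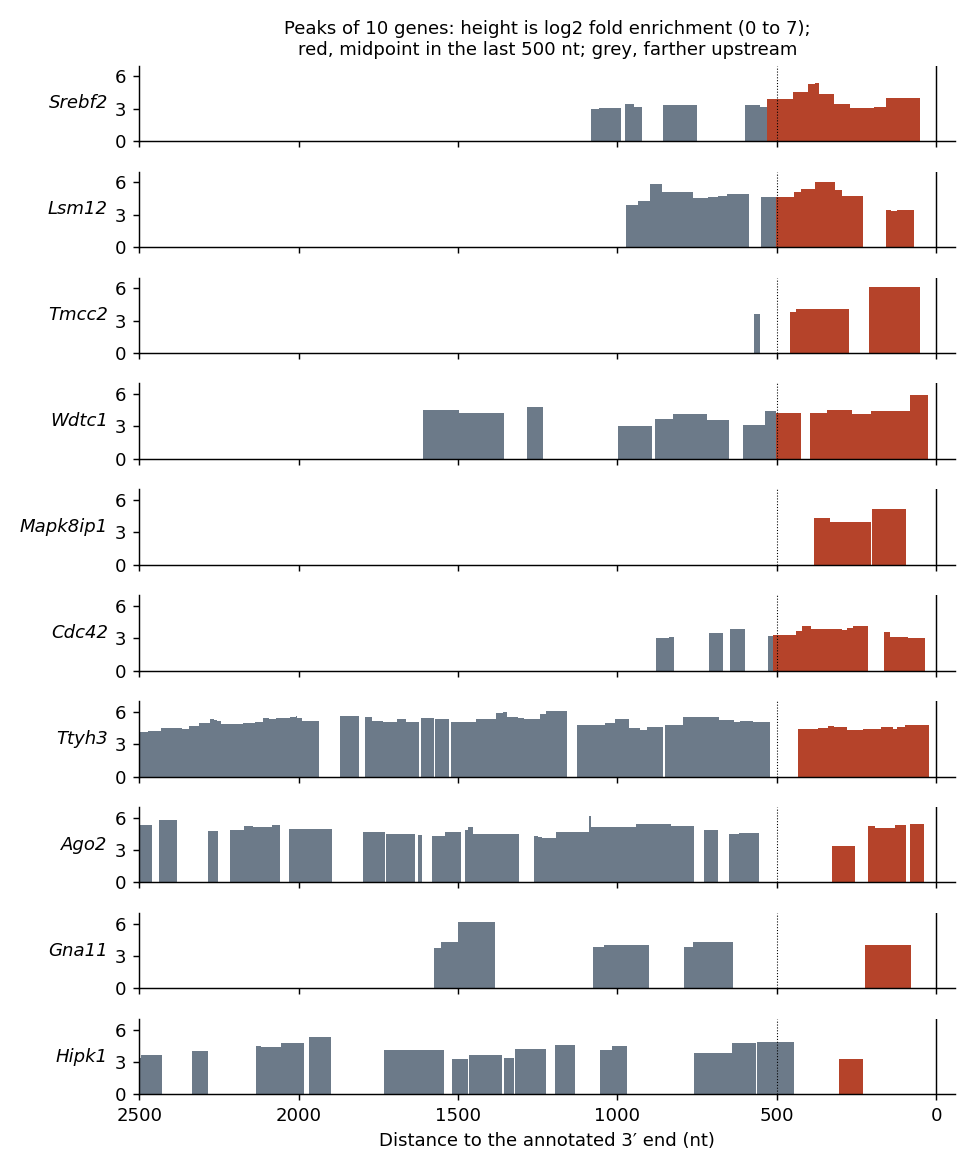
Peaks of 10 genes are drawn as bars by distance to the annotated 3′ end (horizontal axis, nt), with the log2 fold enrichment as height (vertical axis, 0 to 7). Red bars have their midpoint in the last 500 nt and grey bars farther upstream. Srebf2, Wdtc1 and Cdc42 have most of the window covered, Mapk8ip1 has its 3 peaks there and nowhere else, and Ago2, Gna11 and Hipk1 have higher bars upstream of the window.

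In 135 of the 666 genes (20.3%) every assigned peak of the gene lay in the last 500 nt. These genes had a median of 1 peak, 92 of them exactly 1, and their strongest peak had a median of 3.39, against 4.39 in the 531 genes with peaks in both parts. At or above 4 were 16 of them (11.9%), beside 44.1% of the 1421 genes. The 1421 genes had a median of 3 peaks and the 531 of 8, and fewer peaks give a lower maximum by number alone. Among peaks of genes with up to 3 peaks, 12.1% of those in the last 500 nt were at or above 4. At 500 to 1000 nt it was 10.2%, and the medians were 3.39 and 3.35. The last-500-nt peaks of genes with up to 3 peaks include peaks of these 135 genes themselves. These values thus do not compare the 135 genes with other genes of few peaks, which was not tested. The strongest was Mapk8ip1, a scaffold gene of JNK signalling, with 5.13, 4.00 and 4.35 at 147.5, 269.5 and 358 nt. Ifngr2, a subunit gene of the interferon-γ receptor, followed with 1 peak of 4.53. Nrxn2, a presynaptic adhesion gene, had 3.29 and 4.40 at 61 and 366.5 nt, the inositol phosphate kinase gene Ip6k1 1 peak of 4.29, and the aminopeptidase gene Npepps 3.28 and 4.26. The −log10 p of the Ip6k1 peak was low, 3.75.

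In the 531 genes with peaks in both parts, the strongest peak was more often elsewhere. The last 500 nt held the strongest peak in 165 genes (31.1%). The strongest member was lower than the strongest other peak by a median log2 difference of −0.30 (interquartile range −0.70 to 0.14). Taken by the median of the peaks on either side, the last 500 nt were higher in 289 of 531 genes (54.4%), with a median difference of 0.047 (−0.20 to 0.34). The direction thus turned with the measure. A part with more peaks has a higher maximum by number alone, and these genes had a median of 2 members against 6 other peaks. Where a gene had 1 other peak, the member was stronger in 33 of 73 genes (45.2%), and where it had 10 or more, in 36 of 179 (20.1%). By medians these counts ran the other way, with the last 500 nt higher in 30 of the 73 genes (median difference −0.081) and in 110 of the 179 (0.0996).

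These values differed between windows along the gene. The last 500 nt held the strongest peak in 31.1% of the genes with peaks inside and outside the window. The window from 500 to 1000 nt held it in 37.6%, the one from 1000 to 1500 nt in 26.8%, and the one from 1500 to 2000 nt in 26.1%. The one from 2000 to 2500 nt held it in 18.1%, and the one from 2500 to 3000 nt in 14.9%. These genes had a median of 2 peaks inside each window. Outside it the median was 6 for the last 500 nt and then, in order, 5, 7, 8, 10 and 11. More peaks outside give a higher maximum there by number alone, so these shares do not compare positions alone. The differences of medians were 0.047 in the last 500 nt and then, in the same order, 0.077, 0.034, 0.031, −0.042 and −0.049. Genes in which the window held all assigned peaks made up 20.3% for the last 500 nt, 18.5% for 500 to 1000 nt, 10.5% for 1000 to 1500 nt, and 5.95%, 5.28% and 4.04% for the 3 windows from there to 3000 nt. These shares were not tested against each other.

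**Figure D4:**
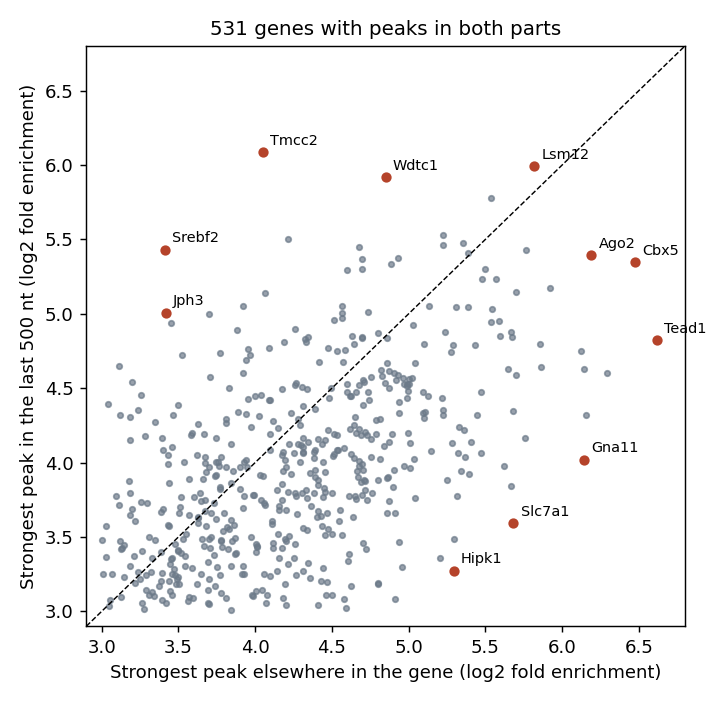
Each point is 1 of the 531 genes with peaks in both parts. The vertical axis gives the strongest log2 fold enrichment in the last 500 nt and the horizontal axis that elsewhere in the gene, with equality as a dashed line and 11 genes in red. Above the line lie 165 genes, with Tmcc2 and Srebf2 farthest above it, and Gna11 is the farthest below it.

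In some genes the strongest peak of the last 500 nt was well above those elsewhere. The largest difference was in Tmcc2, 6.09 in the last 500 nt against 4.05 elsewhere (difference 2.04), and the strongest of its 5 other peaks lay 34911 nt from the end. In Srebf2 the values were 5.43 and 3.41 (difference 2.02), with the 7 other peaks within 1071.5 nt of the end. The Srebf2 peak of 5.43 was 12 nt wide with a −log10 p of 13.4, and the one of 3.41 was 29 nt wide with 32.2. Jph3, a junctophilin gene that links plasma membrane and endoplasmic reticulum, had 5.01, at 491.5 nt and so just inside the window, against 3.42. In Pigq, of glycolipid anchor synthesis, the difference was 1.58, and the chloride transporter gene Clcn4 had 4.65 against 3.12. The −log10 p of the leading members of Jph3, Pigq and Clcn4 were 6.81, 5.28 and 8.73, below the members' median of 9.34.

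In other genes the members were well below the strongest upstream peak, though those of Gna11 and Gfpt1 were above the median of 3.80 for the strongest member per gene. Gna11, a G protein α subunit gene, had 1 member of 4.02 at 150.5 nt, against 6.14 at 1443.5 nt (difference −2.12). The cationic amino acid transporter gene Slc7a1 had members of 3.53, 3.24 and 3.59, against 5.68 elsewhere (−2.09). The kinase gene Hipk1 had 3.27 against 5.29 (−2.02), the sphingomyelinase gene Smpd3 3.36 against 5.20 (−1.84), and Gfpt1, of hexosamine synthesis, 4.32 against 6.15 (−1.83). Of the 30 peaks of Gfpt1, 7 were members, and of the 27 of Hipk1, 1. Another Hipk1 peak, of 4.81, covered 447 to 562 nt from the end and so lay partly in the window. Its midpoint at 504.5 nt put it outside, so the Hipk1 difference depends on placing peaks by midpoints.

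Members were sorted into 14 gene groups with 997 genes in all, of which 251 were genes of at least 15000 nt with a peak and 116 had a member. Beside the 46.9% of all such genes, 8 of the 14 groups had a higher share, and most groups are small. Genes of microRNA silencing had a member in 8 of 12 genes with peaks. Ago2 led with 5 members of 5.39, 5.34, 5.02, 5.27 and 3.39, in order from the end, and 6.19 elsewhere in the gene. The deadenylase gene Cnot6 had 4.80, the decapping helicase gene Ddx6 4.19, and Ago1 4.16. Lin28a, which blocks maturation of let-7, had 3 members up to 3.90, and the GW182 gene Tnrc6b 1 at 3.80.

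Among genes of mRNA decay and of proteins that bind 3′ untranslated regions, 5 of 14 had a member. The Pumilio gene Pum2 had 4.06, the Musashi gene Msi2 3.76 and the Roquin gene Rc3h1 3.55. Genes of 3′ end processing and poly(A) binding had members in 3 of 4, the poly(A) polymerase genes Papola (3.82) and Tent4a (3.30) and the poly(A)-binding protein gene Pabpc4 (3.58). Splicing and nuclear RNA-binding protein genes had members in 5 of 10, none at or above 4, led by Celf1 (3.80) and Rbfox2 (3.61). Translation genes had members in 7 of 13, led by Larp1 and by Etf1 (4.55), the release factor gene.

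Genes of the cytoskeleton and neurite outgrowth had members in 12 of 25, of which 10 reached 4, beside 39.5% of all genes with members. The kinesin genes Kif1b (5.03) and Kif5c (4.67) led, followed by Dpysl3, the microtubule end-binding gene Mapre1 (4.34) and the tau gene Mapt (4.24). In Map2 and Mapt the members were weaker than the strongest other peak, by differences of −1.33 and −1.09. Genes of adhesion, axon guidance and synapses had members in 10 of 19, among them the synapsin gene Syn1 (4.42), Nrxn2, the netrin receptor gene Unc5c (3.90) and the semaphorin receptor gene Plxna1 (3.89), and 2 of the 10 reached 4.

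Chromatin genes had members in 12 of 29, led by Cbx5 (5.35), the Polycomb gene Suz12 (4.53), the methylcytosine dioxygenase gene Tet3 (4.47) and the acetyltransferase gene Kat2b (4.32). Only 2 of the 110 peaks of Cbx5 were members. Kinase cascade and G protein genes had members in 19 of 45, led by Wnk1 (4.79), Gna13 (4.60) and Gnb1 (4.55). Genes of the Wnt, Notch, Hippo, TGF-β and Hedgehog pathways had members in 6 of 18, with Smad5, the Hippo transcription factor gene Tead1 (4.82), Apc (4.59), which scaffolds β-catenin destruction, and the Wnt coreceptor gene Lrp6 (4.01).

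Membrane traffic, channel and transporter genes had members in 13 of 24, led by Arf3, the amino acid transporter gene Slc38a1 (4.85), Ttyh3 and the clathrin adaptor gene Ap2b1 (4.25). Ubiquitin system genes had members in 12 of 30, of which 1, the ubiquitin protease gene Usp31 (4.35), reached 4. The ubiquitin ligase gene Ube3b (3.91) followed. Cell cycle and survival genes had members in 4 of 7, the D-type cyclin gene Ccnd3 (4.58), Cdk19 (3.18), E2f2 (3.15) and the replication helicase gene Mcm2 (3.10). Of the neuroblastoma and sympathetic lineage genes, 1 of at least 15000 nt had a peak and 0 had a member. Peaks do not measure expression, so this says nothing of the identity of the cells.

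**Figure D5:**
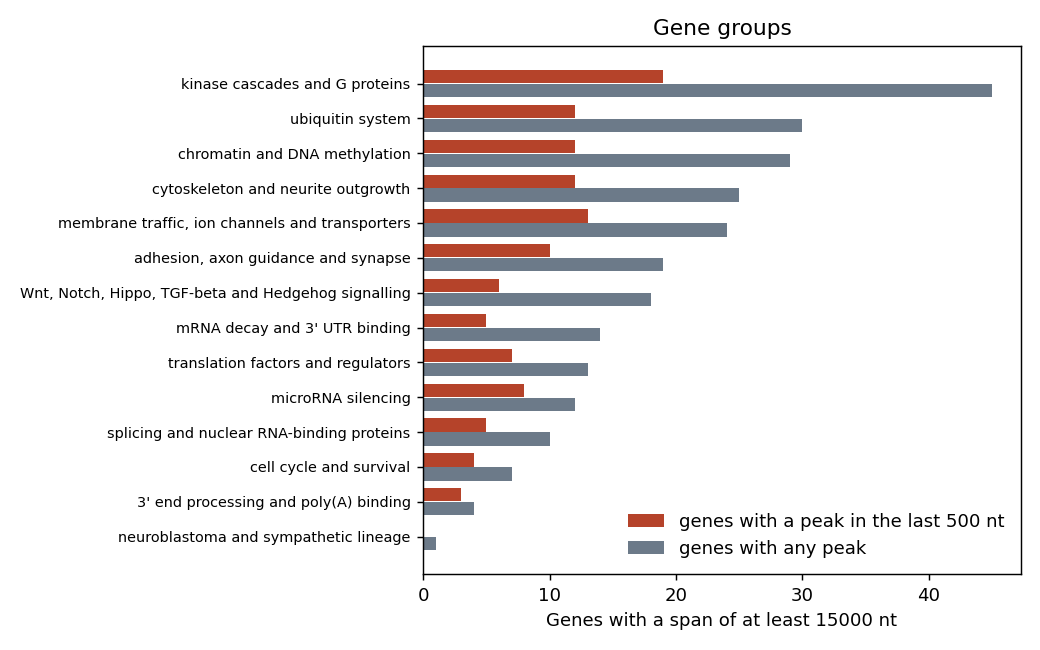
For each of the 14 gene groups, the red bar gives the number of genes with a member in the last 500 nt and the grey bar the number with any peak (horizontal axis, genes of at least 15000 nt). Red bars range between 0 of 1 gene and 19 of 45.

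The few peaks nearest to the limits of the definition had overlapping values on either side, and they are too few to compare the sides. The members farthest from the end, in Adam19, Adcyap1r1 and Clip3, lay at 500, 500 and 499.5 nt and had log2 fold enrichments of 4.04, 3.48 and 3.37. Just outside, the peaks of Dpysl2, Erbin and Clstn1 at 500.5, 501 and 501.5 nt had 3.46, 4.16 and 3.25. At the span limit, Thap12, Ubfd1 and Sec61a1, of 15027, 15105 and 15194 nt, had strongest members of 4.54, 3.15 and 3.42. The shorter genes Fam53c, Stard4 and Dbn1, of 14930, 14725 and 14699 nt, had 3.47, 3.73 and 3.44 in their last 500 nt. In all, genes under 15000 nt held 362 peaks there.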

How the data were processed

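The files used were 1 list of peaks for the 4 libraries (2 immunoprecipitates, 2 inputs) and RefSeq tables of GRCm38.p6 gene spans and gene-start sequences. The 2 value columns have no header. The authors deposited them with no unit, and they were read as −log10 p and as log2 enrichment from their ranges and the usual column order of eCLIP peak files. If a reading is wrong, statements on strength change and those on position do not. The submitters' processing notes name mm10 and GRCm38.p6. The name of the list marks it as an IDR list (irreproducible discovery rate, a measure of reproducibility between replicates). For the aligner, the peak caller, the thresholds and the settings of that step, nothing is given in the sources used here. Nothing says whether replicates came from separate cultures, and the depth is unknown.

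Starts were converted to count from 1, and peaks were placed by their midpoints. Peaks with midpoints in several genes (755) or in none (274) were not members. Gene ends are those of the whole annotated span, with exons and transcript ends not used here. Members, lists and the rule for named genes were chosen with earlier results of these data known. The rule took the 10 strongest gene ends at or above the members' median −log10 p, 5 genes each with most members, with members only and with the largest differences in either direction, members at the limits, and up to 4 per list. Some genes that the rule takes are not reported here. Genes at the ceiling, crossing the end or followed by downstream peaks, and those with readable sequence, were named after their values were seen, as were list genes beyond the leading 4. Placement was tested on simulated data. Work was done in Python 3.11.15 with pandas 2.3.3, numpy 2.4.6 and scipy 1.17.1.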

Additional observations from a re-analysis of the deposited data

How the results depend on the processing

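The 5 summary values (number of members, their median log2 fold enrichment, their share of the peaks in the last 1000 nt, number of genes, median within-gene difference) were recomputed under 6 alternatives, and the within-gene difference under 1 more chosen after the data were seen. Of 31 values, 24 kept their direction and lay within 1.5 times the reported count or, for medians and shares, within a 95% binomial interval over peaks or genes, used here only as a tolerance. Within that wide tolerance the number of members ran between 972 (touching peaks merged) and 1780 (no minimum span), against 1418, and the number of genes between 526 (−log10 p at least 5) and 988 (1000 nt), against 666. With a window of 1000 nt there were 3203 members, their share of the peaks within 2 such windows was 54.6% in place of 44.3%, and the within-gene difference turned to 0.0028 (306 of 611 genes positive). The difference also turned, to 0.047, with medians per gene in place of strongest peaks. At a −log10 p of at least 5 the median log2 fold enrichment was 3.80. The share was 46.8% with peaks placed by their edge nearest the gene end and 46.0% with touching peaks merged. The cause of these changes was not tested. Dropping the minimum span gave 838 genes, and letting only coding genes make a peak shared gave 699, against 666. No paired analysis was possible because the list has no values per library, and for the same reason no replicate could be left out. Depth behind each peak is unknown, so weak peaks could not be weighed by reads. Exons were not used here.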
